A study of Mus musculus with 4 samples.

Results

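Desert hedgehog and PDGF signalling in the mouse testis was followed through 8 genes: the ligand DHH, the receptor PTCH1, the transcription factors GLI1 and GLI2, the ligands PDGFA and PDGFB, and the receptors PDGFRA and PDGFRB. They were taken by symbol from the 112302 entries of the deposited tables, and each of the 8 was found as 1 entry. Symbols are in capitals, as the files list them. RNA of testis from mice of the BALB/C strain had been sequenced at the fetal stages E14 and E18 (days of embryonic development) and at the postnatal ages of 3 weeks and 6 months, with 1 library each. The labels name no genotype, treatment or transgene. They say that the RNA was purchased, depleted of ribosomal RNA and, by the protocol, selected for polyadenylated RNA. The number of animals behind each RNA is not given in the sources used here. Values are RPKM, a read number divided by library total and by gene model length. Because the values step by whole reads, the reads behind them could be recovered. Library totals were between 33952471 reads (3 weeks) and 38903334 reads (E14).

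In the developing testis, Sertoli cells of the seminiferous cords secrete Desert hedgehog. The ligand binds Patched receptors on interstitial and peritubular cells, which releases Smoothened and lets Gli proteins act on transcription. PTCH1 and GLI1 are themselves induced by this signal and are widely used as its readouts. In mice, loss of Dhh impairs fetal Leydig cells and peritubular myoid cells, and loss of Pdgfra disturbs cord formation and fetal Leydig cells. PDGF-A, known from Sertoli cells, acts through PDGF receptor alpha, while PDGF-B, known from endothelial cells, recruits pericytes through PDGF receptor beta.

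The libraries differed in tissue make-up. At E14, 2 of 12 Sertoli cell markers (FSHR and RHOX8) were at 0 and the 12 summed to 11.5 RPKM, against 116 at E18, 212 at 3 weeks and 171 at 6 months. Meiotic germ cell markers summed to 1.14, 4.43, 391 and 170 RPKM in stage order, and spermatid markers to 1.80, 2.64, 6.14 and 5943. Cartilage markers summed to 69.8 RPKM at E14 and 0.509 at E18, liver markers to 302 and 58.9, kidney tubule markers to 2.96 and 40.5, and bladder urothelium markers to 9.27 and 46.1. Each of these 4 sums was below 2 RPKM at both postnatal stages. Reads of XIST, which is transcribed from the inactive X, numbered 8875 at E14 and 76, 96 and 20 at the later stages. Those of DDX3Y, a gene of the Y chromosome, numbered 267 at E14 and 749, 547 and 154 at the later stages. Hedgehog and PDGF genes are active in many fetal organs, and the part of such tissue in the values below was not tested. In whole tissue, fewer cells of a type and less RNA per cell cannot be told apart.

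Promoter sequence was at hand for 5 of the 8 genes. Those of DHH, PTCH1 and PDGFRA are shown because these genes stand for the ligand, the hedgehog receptor and the PDGF receptor whose courses are compared below. Each line gives the 250 bases before a RefSeq transcript start, 5′ to 3′ on the gene's strand (GRCm38.p6), and none of these bases lies in an exon of GENCODE vM21. Capitals mark the GC box GGGCGG on either strand.
DHH: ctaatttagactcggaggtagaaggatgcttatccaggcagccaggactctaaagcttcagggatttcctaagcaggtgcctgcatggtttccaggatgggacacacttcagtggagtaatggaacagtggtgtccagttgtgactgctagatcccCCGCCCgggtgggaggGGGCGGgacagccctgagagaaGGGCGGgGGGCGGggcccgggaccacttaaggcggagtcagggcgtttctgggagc
PTCH1: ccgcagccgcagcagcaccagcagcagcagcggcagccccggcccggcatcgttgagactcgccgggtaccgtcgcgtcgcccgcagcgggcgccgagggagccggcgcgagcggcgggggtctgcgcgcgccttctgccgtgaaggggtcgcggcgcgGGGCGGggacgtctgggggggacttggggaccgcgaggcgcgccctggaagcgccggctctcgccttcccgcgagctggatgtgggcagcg
PDGFRA: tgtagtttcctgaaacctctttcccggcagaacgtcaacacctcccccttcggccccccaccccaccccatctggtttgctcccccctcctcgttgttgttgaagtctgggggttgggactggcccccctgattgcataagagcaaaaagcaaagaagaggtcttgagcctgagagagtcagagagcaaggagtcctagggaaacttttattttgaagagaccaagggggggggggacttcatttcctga
The windows are chr15:98898541-98898790 (minus strand), chr13:63565736-63565985 (minus strand) and chr5:75152001-75152250 (plus strand). The PTCH1 window lies inside the gene as annotated, between the starts of longer and shorter transcripts, and the others lie just outside theirs. GC boxes numbered 4 in the DHH window, 1 in that of PTCH1 and 0 in that of PDGFRA, and 32.7% of all 32851 windows held at least 1. The DHH and PTCH1 windows were 59.6% and 78.4% G and C and that of PDGFRA 54.4%, beside a median of 52.4%. The Gli motif GACCACCCA, found in 0.225% of windows on either strand, and TATAAA, found in 12.4%, were in none of the 3.

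DHH, the hedgehog ligand of Sertoli cells (chromosome 15, 98891152 to 98898540, protein-coding), had 0.239 RPKM at E14 and 7.64 at E18, with 3.10 at 3 weeks and 2.30 at 6 months. The reads behind these levels were 22, 619, 249 and 195. It was lowest at E14 by far and highest at E18, and no 2 neighbours in the order of its levels had a ratio whose 95% interval held 1. Such intervals are exact and cover counting error only, as there was no replicate. At E18 the level was above that of 93.4% of 18589 established protein-coding symbols, at E14 above that of 32.8%. The E18 level was 32.0 times that at E14 (95% interval 20.9 to 51.4), a log2 difference of 2.80. Differences are of log2(RPKM + 1), later minus earlier, which understates the change of low genes, and a gene is called higher or lower where their size was at least 1, which is 2-fold there.

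DHH was the main hedgehog ligand from E18 onwards. Sonic hedgehog, SHH, which patterns limb, gut and bladder, had 0.382, 0.488, 0.164 and 0.0208 RPKM in stage order. Indian hedgehog, IHH, the ligand of growing cartilage, had 0.757, 0.203, 0.205 and 0.0924. Of the summed RPKM of the 3 ligands, DHH made up 17.3% at E14 and 91.7% at E18, with 89.4% at 3 weeks and 95.3% at 6 months. At E14 IHH was above DHH. Cartilage markers were high in that library, and their part in the IHH level was not tested.

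**Figure D1:**
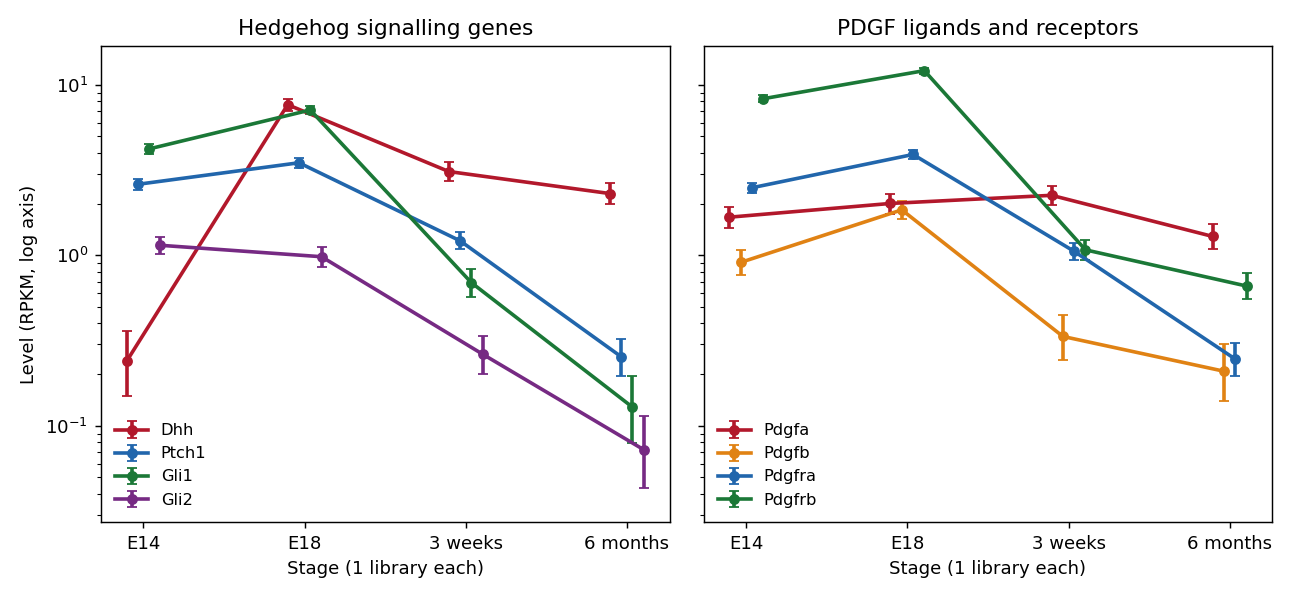
Levels of the 8 genes in RPKM (log axis) at the 4 stages, with hedgehog genes on the left and PDGF ligands and receptors on the right. Points are single libraries and bars exact 95% Poisson intervals of the reads. DHH climbs to 7.64 at E18 and stays above 2 afterwards, PDGFA lies between 1.29 and 2.25 throughout, and the other 6 genes are lower after birth than before.

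PTCH1, the receptor and target of hedgehog (chromosome 13, 63508328 to 63573598), had 2.61 RPKM at E14 and 3.49 at E18, with 1.22 at 3 weeks and 0.254 at 6 months. These levels rest on 747, 879, 304 and 67 reads. GLI1, the activating transcription factor induced by the pathway (chromosome 10, 127329882 to 127341974), had 4.21, 7.11, 0.691 and 0.129 RPKM from 746, 1110, 107 and 21 reads. Both were highest at E18, next at E14 and lowest at 6 months, with neighbouring ratios whose intervals excluded 1. GLI2, which transmits the signal before GLI1 is induced (chromosome 1, 118834132 to 119053619), had 1.14, 0.981, 0.263 and 0.0724 RPKM from 309, 233, 62 and 18 reads. Its E14 and E18 levels did not differ beyond counting error (ratio of E18 to E14 0.857, interval 0.720 to 1.02), and it reached 1 RPKM at E14 alone.

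Ligand and readouts had taken different courses by 6 months. By RPKM, GLI1 at 6 months stood 55.3-fold below E18 (36.0 to 89.7) and PTCH1 13.7-fold (10.7 to 17.9), while DHH stood 3.32-fold below (2.82 to 3.92). Per unit of PTCH1, DHH stood at 0.0916 at E14 and 2.19 (1.97 to 2.43) at E18. It stood at 2.55 (2.15 to 3.02) at 3 weeks and 9.05 (6.83 to 12.1) at 6 months. The E18 and 3-week intervals overlap, so after E18 the parting of DHH from PTCH1 rests on the 6-month library, with 67 PTCH1 reads. The readouts also parted from each other. GLI1 exceeded PTCH1 before birth, with a ratio of 1.61 (1.46 to 1.79) at E14 and 2.04 (1.86 to 2.23) at E18. After birth it was below PTCH1, with a ratio of 0.568 (0.452 to 0.711) at 3 weeks and 0.506 (0.294 to 0.837) at 6 months.

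PDGFA, the ligand of receptor alpha (chromosome 5, 138976014 to 138997370), had 1.67 RPKM at E14 and 2.01 at E18, with 2.25 at 3 weeks and 1.29 at 6 months, from 203, 215, 238 and 144 reads. It was the flattest of the 8 genes, and neither E14 and E18 nor E18 and 3 weeks differed beyond counting error. PDGFB, the ligand of pericyte recruitment (chromosome 15, 79995874 to 80014977), had 0.909, 1.85, 0.334 and 0.209 RPKM from 137, 245, 44 and 29 reads. The 2 ligands were close at E18, with PDGFA 1.09 times PDGFB (0.904 to 1.32), and PDGFA was 6.72 times PDGFB (4.86 to 9.50) at 3 weeks. PDGFC, another ligand of receptor alpha, had 2.13, 2.39, 0.538 and 0.593 RPKM, and PDGFD, a ligand of receptor beta, 1.12, 2.58, 0.755 and 0.725. PDGFA made up 28.7%, 22.8%, 58.0% and 45.8% of the summed RPKM of the 4 ligands in stage order.

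PDGFRA, the receptor of Leydig cell precursors and other mesenchyme (chromosome 5, 75152292 to 75198215), had 2.49 RPKM at E14 and 3.90 at E18, with 1.05 at 3 weeks and 0.246 at 6 months, from 868, 1197, 321 and 79 reads. PDGFRB, the receptor of pericytes and perivascular mesenchyme (chromosome 18), had 8.28, 12.1, 1.08 and 0.660 RPKM from 1772, 2278, 201 and 130 reads, the highest of the 8 genes in both fetal libraries. Both receptors were highest at E18 and lowest at 6 months. PDGFRB was 3.10 times PDGFRA (2.89 to 3.33) at E18, the 2 were level at 3 weeks (1.02 times, 0.851 to 1.22), and PDGFRB was 2.68 times PDGFRA (2.01 to 3.59) at 6 months. The receptors and the flat ligand crossed: PDGFA per unit of PDGFRA was 0.672, 0.516, 2.13 and 5.24 in stage order.

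Between E14 and E18, DHH was the 1 member of 8 at least 2-fold higher, and 0 were lower. Over all 42964 measured entries, those that reached 1 RPKM in some library, 2.17% were higher at E18 and 1.34% lower. Among 11740 measured established protein-coding symbols the shares were 3.61% and 1.70%. HHIP, a secreted-ligand trap and hedgehog target, had 2.78 RPKM at E18 and 0.852 at E14 and was called higher (log2 difference 1.03). It was measured through E18 alone, the library where it is high. GLI1 stood at 7.11 RPKM at E18 and 4.21 at E14 (0.64) and PDGFB at 1.85 and 0.909 (0.58), with ratios of 1.69 (1.54 to 1.86) and 2.03 (1.64 to 2.52). The median difference of the 8 members was 0.49, against 0.03 over all entries and 0.09 over established symbols.

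In the same interval 2 targets known from other tissues were lower at E18. FOXF1, a factor of gut and lung mesenchyme, had 1.90 RPKM at E18 and 5.82 at E14, and the related FOXF2 had 0.321 and 2.93. FOXF2 was measured through E14 alone, the library where it is high. In all, 1 of 24 measured hedgehog pathway genes was higher and 2 were lower, and of 25 measured PDGF pathway genes 0 were higher and 0 lower, with median differences of -0.04 and 0.12. With E14 left out of the filter, 1 of 22 hedgehog pathway genes was lower, beside 322 of 41899 entries. A 4-fold limit left 0 of 24 lower, beside 90 of 42964 entries. Rescaling with the median of ratios, or with ribosomal protein genes, ended the call on HHIP, while that on DHH was kept under each alternative (log2 difference 2.28 to 4.51). Sertoli cell markers summed to 116 RPKM at E18 and 11.5 at E14, Leydig cell markers to 151 and 8.86, peritubular and smooth muscle markers to 789 and 209, and skeletal muscle markers to 44.5 and 197. The part of these cells in the differences was not tested.

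**Figure D2:**
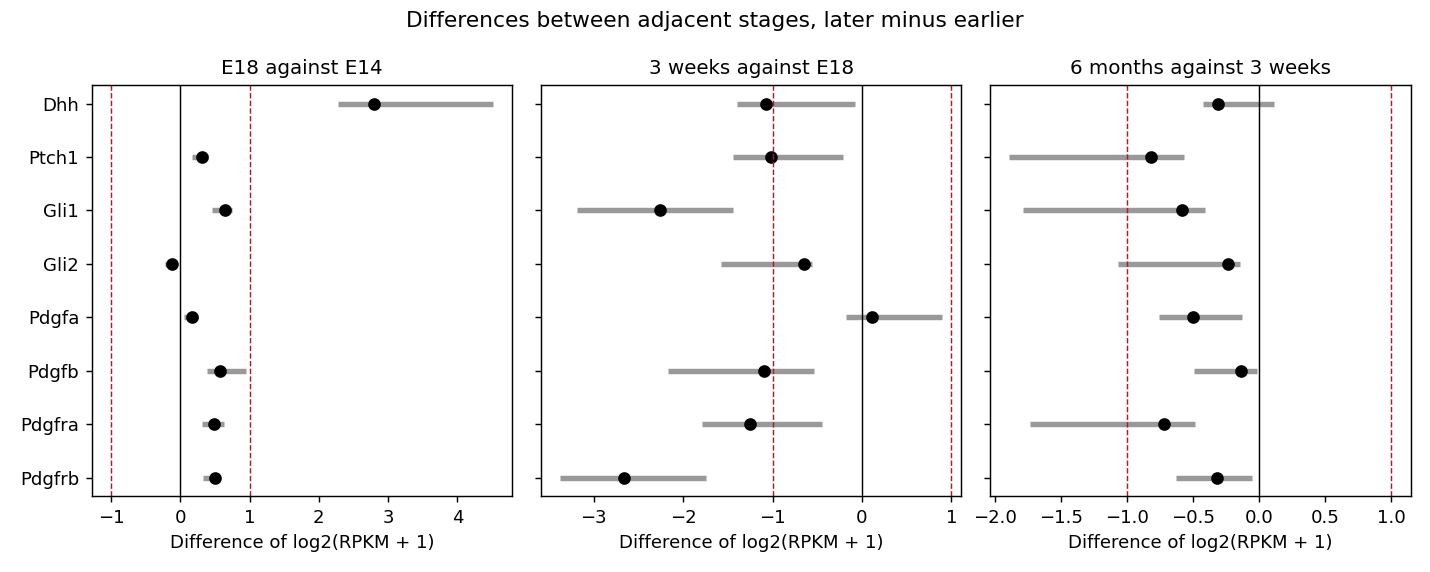
Differences of log2(RPKM + 1), later minus earlier, for the 8 genes in the 3 comparisons of adjacent stages. Black points are the reported values, grey bars the range over the alternative settings, and dashed red lines mark 2-fold. DHH passes the upper line at E18 against E14, and 6 genes pass the lower line at 3 weeks against E18, with GLI1 and PDGFRB the farthest.

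Between E18 and 3 weeks, 6 of the 8 members were at least 2-fold lower and 0 were higher, where 10.5% of all measured entries were lower and 32.0% higher (13.9% and 22.6% of established symbols). PDGFRB was the farthest, at 1.08 RPKM at 3 weeks and 12.1 at E18, 11.2-fold lower (9.73 to 13.1). GLI1 had 0.691 RPKM at 3 weeks and 7.11 at E18, 10.3-fold lower (8.43 to 12.7). PDGFB was 5.52-fold lower, PDGFRA 3.70-fold, PTCH1 2.87-fold and DHH 2.47-fold (2.13 to 2.87) by RPKM. PDGFB was measured through E18 alone, the library where it is high. Not past the limit were GLI2, at 0.263 RPKM at 3 weeks and 0.981 at E18 (log2 difference -0.65), and PDGFA, at 2.25 and 2.01 (0.11). The median difference of the members was -1.08, against 0.46 over all entries and 0.18 over established symbols.

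Scaling bore on the smaller of these decreases. Rescaled over ribosomal protein genes, GLI1 (-1.44) and PDGFRB (-1.74) were past the limit and DHH stood at -0.08, PTCH1 at -0.21, PDGFRA at -0.45 and PDGFB at -0.53. Rescaled to an equal sum, GLI1, PDGFRA and PDGFRB were past it.

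Hedgehog reception genes were lower with the members. Of the 5 reception and binding proteins analysed here, 5 were lower at 3 weeks, beside 10.5% of all measured entries. The co-receptor GAS1 had 1.65 RPKM at 3 weeks and 18.05 at E18 (log2 difference -2.85), and SMO, the signal transducer held back by Patched, had 1.16 and 10.4 (-2.39). The co-receptor CDON had 0.775 RPKM at 3 weeks and 4.04 at E18, the co-receptor BOC 0.840 and 3.05, and HHIP 0.535 and 2.78. HHIP was measured through E18 alone. Among 10 measured signal transduction genes 0 were lower and 1 was higher, STK36, a kinase needed for motile cilia in mice (3.29 RPKM at 3 weeks and 0.540 at E18). The whole list had 8 of 24 lower and 1 higher, beside 10.5% and 32.0% of all measured entries. With ribosomal protein scaling 2 of 23 were lower and 5 higher, beside 1145 and 23915 of 46617 entries.

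In the PDGF pathway list 10 of 25 measured genes were lower at 3 weeks and 1 was higher, beside 10.5% and 32.0% of all measured entries. Both other ligands were lower, PDGFC at 0.538 RPKM at 3 weeks and 2.39 at E18 and PDGFD at 0.755 and 2.58. The largest decreases were those of the immediate early genes JUN (1.92 and 9.47 RPKM, log2 difference -1.84), IER2 (1.26 and 6.66) and MYC (0.564 and 3.91). RASA1, a Ras GTPase activating protein that binds PDGF receptor beta, was higher, at 10.1 RPKM at 3 weeks and 3.30 at E18 (1.37). Rescaled over ribosomal protein genes, 0 genes of this list were lower and 5 higher, beside 1145 and 23915 of 46617 entries. Peritubular and smooth muscle markers summed to 46.2 RPKM at 3 weeks and 789 at E18, and 6 of 6 were lower. Stroma markers summed to 68.3 RPKM at 3 weeks and 343 at E18, endothelium markers to 5.10 and 38.7, pericyte markers to 3.50 and 17.5, and meiotic germ cell markers to 391 and 4.43. What these shifts in cell markers contribute to the lower levels was not tested.

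**Figure D3:**
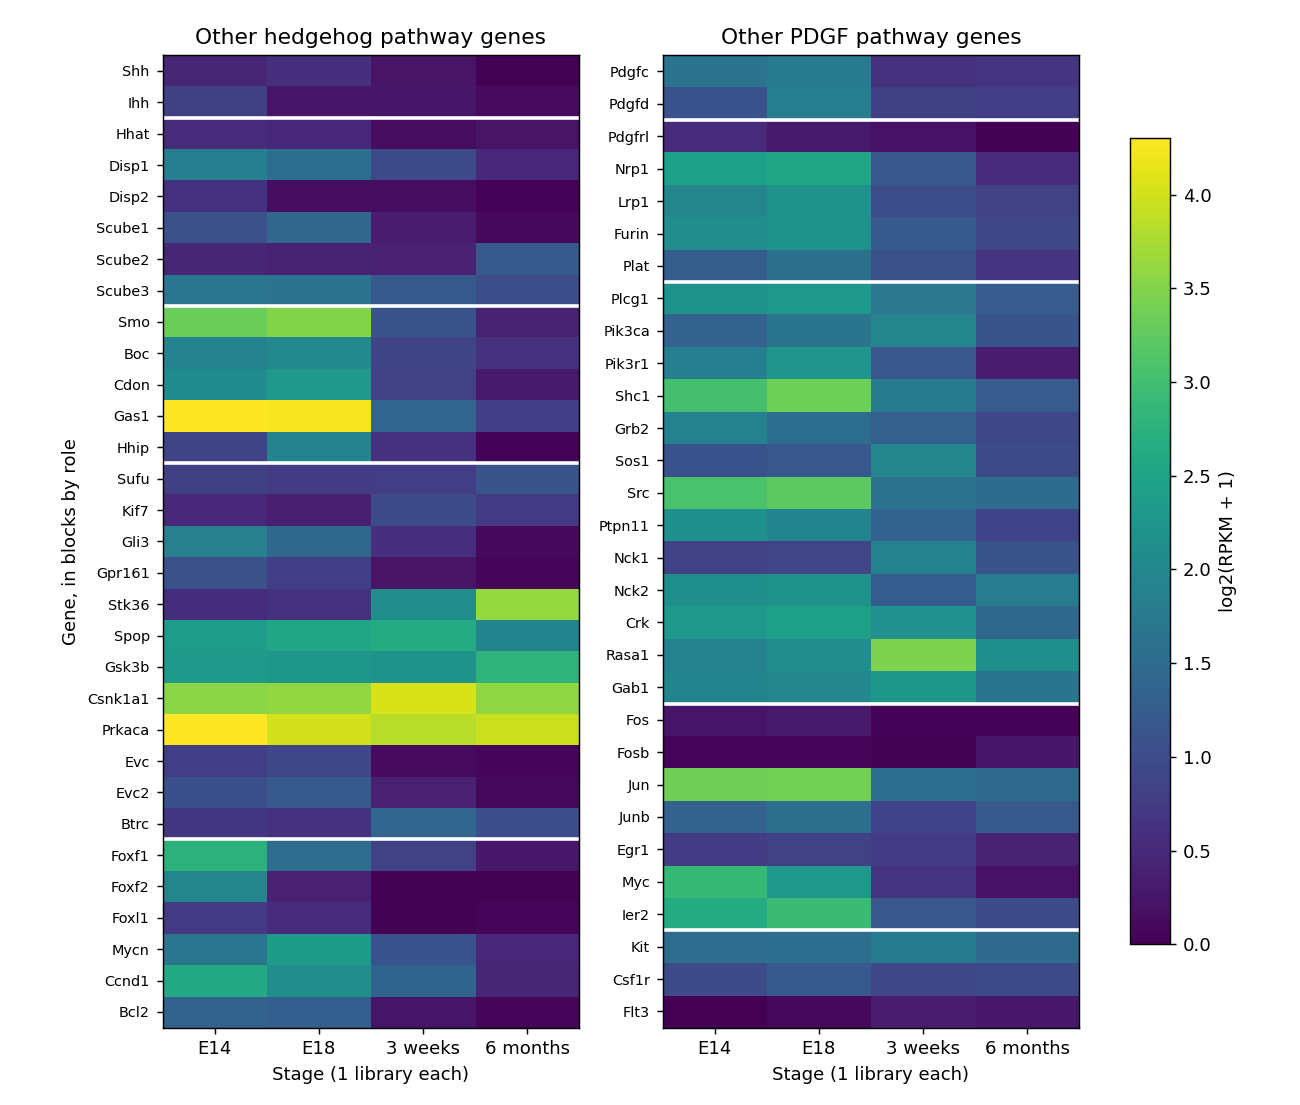
Levels, as log2(RPKM + 1), of the other hedgehog (left) and PDGF (right) pathway genes at the 4 stages, 1 library each. White lines part the blocks by role: ligands, release, receptors, transduction and targets on the left, and ligands, modulators, transduction, immediate early genes and related kinases on the right. GAS1 and SMO are bright at E14 and E18 and dark after birth, while STK36 is brightest at 6 months (11.3 RPKM) and RASA1 at 3 weeks (10.1 RPKM).

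Between 3 weeks and 6 months, 0 of 8 members were past 2-fold on the log2(RPKM + 1) scale, where 9.73% of all measured entries were higher and 14.1% lower (8.48% and 7.83% of established symbols). The levels were low enough for the pseudocount to matter, and 4 members were past the limit with a pseudocount of 0.1. At that pseudocount, 6161 of all 42964 measured entries were higher and 13337 lower. By RPKM, GLI1 at 6 months stood 5.37-fold below 3 weeks (3.34 to 9.03), PTCH1 4.78-fold (3.66 to 6.33), PDGFRA 4.28-fold (3.34 to 5.55) and GLI2 3.63-fold (2.12 to 6.52). Those 4 were the members past the limit with the smaller pseudocount. PDGFA at 6 months stood 1.74-fold below 3 weeks (1.41 to 2.16), PDGFRB 1.63-fold (1.30 to 2.05) and DHH 1.35-fold (1.11 to 1.63). PDGFB stood 1.60-fold below (0.979 to 2.65), within counting error. The log2 difference of DHH, -0.31, was 0.11 when libraries were rescaled by the median of ratios. The members' median difference was -0.41, that of all entries -0.31 and that of established symbols -0.24.

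HHIP had 0.0277 RPKM at 6 months and 0.535 at 3 weeks, from 9 and 165 reads, 19.3-fold apart (9.94 to 43.0). SMO at 6 months stood 3.60-fold below 3 weeks (0.323 and 1.16 RPKM), CDON 3.24-fold (0.239 and 0.775), GAS1 2.22-fold (0.740 and 1.65) and BOC 1.61-fold (0.521 and 0.840). Past the limit on the log2(RPKM + 1) scale were STK36, higher at 11.3 RPKM at 6 months and 3.29 at 3 weeks, and RASA1, lower at 3.41 and 10.1. Spermatid markers summed to 5943 RPKM at 6 months and 6.14 at 3 weeks, stroma markers to 12.6 and 68.3 and Leydig cell markers to 584 and 75.5, and their part was not tested.

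Set against cell type markers of the same library, the members took different courses. For every 100 RPKM of 8 summed stroma markers, PTCH1 had 1.54 RPKM at E14 and 1.02 at E18, with 1.78 at 3 weeks and 2.02 at 6 months. PDGFRA had 1.47, 1.14, 1.54 and 1.96, so that neither was lower against stroma after birth than at E18. Against 9 Leydig cell markers both were lower after birth than before, PTCH1 with 29.4, 2.30, 1.61 and 0.0435 and PDGFRA with 28.1, 2.58, 1.40 and 0.0422 in stage order. Per 100 RPKM of the stroma markers, GLI1 had 2.48 and 2.07 at the fetal stages and 1.01 and 1.02 after birth. PDGFRB had 4.89, 3.52, 1.57 and 5.24 against the stroma markers, with its low at 3 weeks. Per 100 RPKM of 6 pericyte markers it had 51.8, 69.2, 30.8 and 39.1. DHH had 2.07 RPKM per 100 RPKM of 12 Sertoli cell markers at E14 and 6.60 at E18, with 1.46 at 3 weeks and 1.35 at 6 months. PDGFA had 14.5, 1.74, 1.06 and 0.756 against the same markers. PDGFB per 100 RPKM of 8 endothelium markers was 3.61, 4.77, 6.56 and 5.90. These ratios are descriptions, chosen after the values were seen. The sums lean on their most abundant markers, at E18 DCN for stroma (150 RPKM), DEFB19 for Sertoli cells (35.6) and CDH5 for endothelium (22.5). The Leydig cell sum at 6 months leans on INSL3 (357 RPKM) and CYP17A1 (120), which had 19.6 and 23.6 at 3 weeks. At E14 the most abundant Sertoli cell marker was SOX9 (4.00 of 11.5 RPKM). Cartilage markers summed to 69.8 RPKM in that library, and their part in the SOX9 level was not tested. The E14 ratios of DHH and PDGFA to these markers are therefore not values per Sertoli cell.

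**Figure D4:**
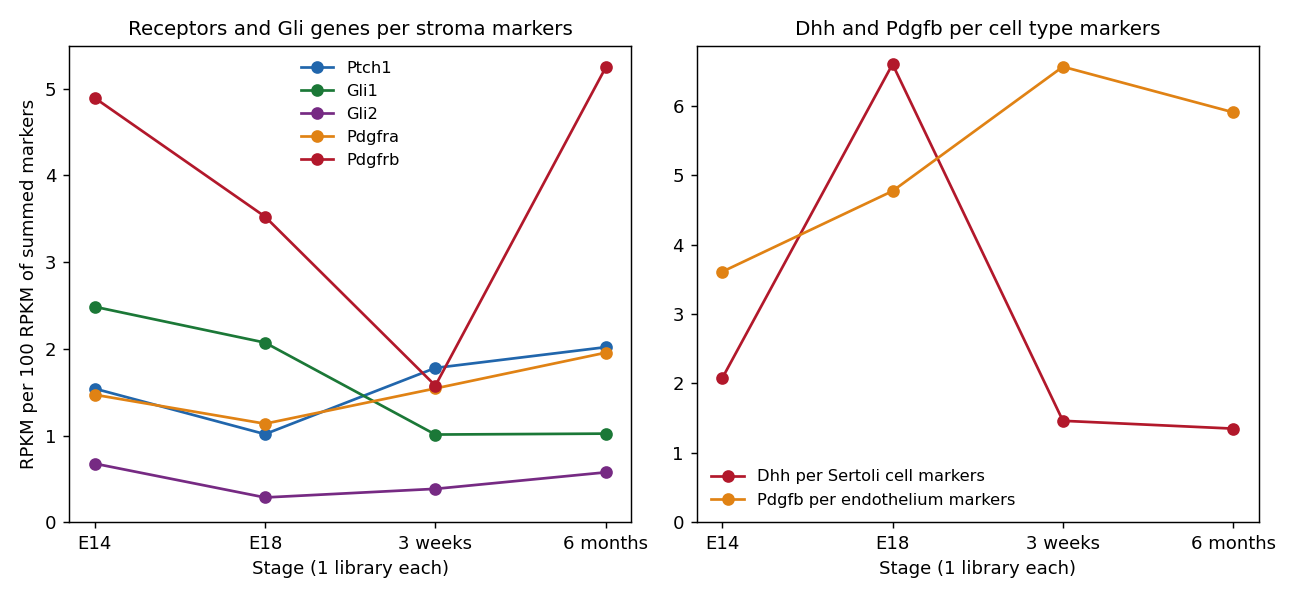
RPKM of a gene per 100 RPKM of summed markers in the same library, at the 4 stages. The left panel sets PTCH1, GLI1, GLI2, PDGFRA and PDGFRB against stroma markers, the right panel DHH against Sertoli cell and PDGFB against endothelium markers. GLI1 lies above PTCH1 before birth and below it after, and DHH peaks at E18 (6.60).

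Other genes with similar courses were sought among 18406 established protein-coding symbols, by the largest gap in log2(RPKM + 1) over the 4 libraries. Nearest to DHH were VNN1, a pantetheinase, with 0.298, 7.15, 3.22 and 2.10 RPKM (largest gap 0.09), the folate receptor FOLR1 (0.38) and the signalling protein WNT6 (0.65). The first 2 were the ones within a gap of 0.5 of DHH. Nearest to GLI1 were PDLIM4, PARVA and MEIS1 (0.23, 0.24 and 0.25), among 63 symbols within 0.5, and nearest to PDGFRA were SRI, PLAG1 and PDPN (0.07, 0.15 and 0.20), among 242.

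Some of the genes overlap others on the chromosome, and the treatment of strand and overlap by the authors is not given in the sources used here. RHEBL1, on the strand of DHH, had 0.209, 0.638, 0.195 and 0.312 RPKM in stage order. An antisense gene at PDGFA had 0.647, 0.720, 0.416 and 0.395, and ARHGAP9, which meets GLI1 from the other strand, 0.200, 0.321, 0.0730 and 0.0890. All were below the member they overlap at E18, but RHEBL1 and DHH (0.239) were close at E14, and ARHGAP9 and GLI1 (0.129) at 6 months.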

How the data were processed

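RNA of 4 testis libraries was analysed, 1 at each stage. The deposited files hold RPKM for 112302 entries, per the file headers. Per the submitters' processing notes, the tool was TopHat2 and the build mm10. Which counter, annotation and filters made the RPKM is not given in the sources used here. Library totals were taken from the most frequent step of RPKM times length over single-exon genes. Whole reads and 1 model length were then found for all 188 listed entries above 0, at a relative tolerance of 1e-09, with lengths up to 200000 bases. A common factor of all 4 read numbers of an entry would be lost, so they are minimum values. Intervals are exact at 95%, Poisson for levels and Clopper-Pearson for ratios. At these depths, 3 reads in a model of 1 kb correspond to between 0.0771 RPKM (E14) and 0.0884 RPKM (3 weeks). Intervals cover counting error only, since copied molecules were not told apart. With 1 library per stage no p-value was computed.

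Entries that reached 1 RPKM in some library were compared, with a pseudocount of 1. Established symbols are protein-coding GENCODE symbols without clone-type names. No spike-in scaling was used, and alternatives to filter, pseudocount, limit and scaling were tried. Named were the 8 members, the ligands and receptors of 2 pathway lists, their largest differences past the limit, and the nearest courses of DHH, GLI1 and PDGFRA. An item of the hedgehog list is not reported here and is left out of its counts. Members and lists were chosen with earlier results of these data known. Positions are from GENCODE vM21 on GRCm38, which is mm10, and promoter sequences from RefSeq on GRCm38.p6. Recovery of reads and calls were tested on simulated data. Python 3.11.15, pandas 2.3.3, numpy 2.4.6 and scipy 1.17.1 were used.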

Additional observations from a re-analysis of the deposited data

How the results depend on the processing

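Settings tried were a minimum of 5 RPKM or none, a pseudocount of 0.1, a 4-fold limit, scaling with 75 ribosomal protein genes, the median of ratios or an equal sum, established protein-coding symbols alone, and, chosen after the data were seen, E14 left out of the filter. Of 195 values of the members under these settings, 192 kept the sign of the reported one. The exceptions were PDGFA at 3 weeks under the median of ratios and established symbols, and DHH at 6 months under the median of ratios. The settings of minimum RPKM, 4-fold limit and filter without E14 leave log2 differences unchanged. Values under them could not change sign, and the count of 192 includes them. The count of 6 members lower at 3 weeks was 3 at a minimum of 5 RPKM, 2 at 4-fold, 3 at an equal sum and 2 over ribosomal protein genes, where 3, 8, 8 and 7 members entered. In the same order, 2652 of 17797, 852 of 42964, 3534 of 43721 and 1145 of 46617 of all entries were lower. The count of 0 lower at 6 months was 4 with a pseudocount of 0.1. Among the hedgehog list, the 8 lower at 3 weeks ranged from 2 to 13 and the 0 lower at 6 months reached 11 with a pseudocount of 0.1. Of the PDGF list, the 10 lower at 3 weeks ranged from 0 to 13 and the 1 lower at 6 months reached 7 of 25, also with a pseudocount of 0.1. At that pseudocount, 7687 of all 42964 measured entries were lower at 3 weeks and 13337 at 6 months. Over all entries, 13742 were higher and 4532 lower at 3 weeks, which became 23915 and 1145 over ribosomal protein genes and 10490 and 6187 by the median of ratios, with shifts of the median of 0.64 and -0.25. At 6 months 4182 and 6062 became 6647 and 2145 by the median of ratios (shift 0.32). At E18 934 and 574 became 461 and 478 over ribosomal protein genes. Where no cause is given, it was not tested. Depth limits DHH at E14 (22 reads) and GLI1 and GLI2 at 6 months (21 and 18). No paired analysis was possible because each stage had 1 library, and for the same reason no library could be left out of a stage.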

Other observations

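Several other genes of both pathway lists stood highest after birth, BTRC, SOS1 and NCK1 among them. Those described next are from the hedgehog list and were picked after their values were seen. SCUBE2, a secreted protein that helps release hedgehog ligand, had 1.30 RPKM at 6 months, against 0.378 at E14, 0.338 at E18 and 0.312 at 3 weeks. SUFU, the inhibitor of Gli proteins, had 1.15 RPKM at 6 months, against 0.766, 0.707 and 0.721 at the 3 earlier stages. KIF7, a kinesin of the primary cilium that controls Gli proteins, had 0.995 RPKM at 3 weeks and 0.657 at 6 months, against 0.403 at E14 and 0.293 at E18. It was below 1 RPKM in every library and so was not among the measured genes.

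PDGFRL, a receptor-like protein, was below 1 RPKM in every library (0.444, 0.243, 0.151 and 0.0179 RPKM in stage order). Of the receptor kinases related to the PDGF receptors, KIT, the receptor of stem cell factor on germ cells and Leydig cells, had 1.90, 1.95, 2.40 and 1.79 RPKM in stage order. CSF1R, the receptor of macrophages, had 0.990, 1.31, 0.890 and 0.942. Neither passed 2-fold between adjacent stages.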
